A study of Mus musculus with 12 samples.

Results

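Long culture with anti-CD3/anti-CD28 beads and high dose interleukin-2 (IL-2) was compared with the fresh and the stimulated state of T cells from mouse spleen. The members are the genes whose mean in both culture groups lay above, or in both lay below, their mean in both other groups. By this order of group means 8809 of the 18193 genes measured were members, 3517 with the cultures higher (19.3% of all genes) and 5292 with the cultures lower (29.1%). The order alone takes no account of error. When each array was centred on its median the split turned to 4911 higher and 3471 lower, so the share of higher genes moved from 39.9% to 58.6%, and no weight is put on it here. The genes described are those that also passed a test in each of 4 comparisons, namely each culture group against each other group. They numbered 83 with the cultures higher (0.456% of the genes tested) and 20 with the cultures lower (0.11%).

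RNA of 12 samples was hybridized to Affymetrix whole-genome mouse arrays, 1 array per sample. All cells were splenic T cells of female C57BL/6 mice aged 8 to 12 weeks by the sample labels. The 8 cultures were 5 of CD8+ NKT-like cells, that is CD8+ T cells that come to carry natural killer (NK) cell markers during the culture, and 3 of CD4+ T cells taken through the same protocol, which used IL-2 at 2000 IU/ml for 10 to 13 days, though the study's methods allow a shorter culture. CD8+ cells were enriched by magnetic depletion of other cells, and CD4+ cells were sorted by flow cytometry. The 4 other samples comprised 2 of naive CD8+ cells used fresh and 2 in which CD8+ cells had been stimulated with little of both antibodies, in soluble form. The time of that activation and the cytokines present were not given in the sources used here. Beads, IL-2 and time therefore changed together between the sides and cannot be told apart, and without fresh CD4+ cells in the comparison the CD4+ cultures differed from both other groups in lineage as well.

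IL-2 is the growth factor of activated T cells. It signals through STAT5, a transcription factor that switches on the high affinity IL-2 receptor chain and genes of effector differentiation. A naive T cell recirculates through lymph nodes and carries adhesion, homing and quiescence genes. On stimulation through its antigen receptor and CD28 it grows, raises glycolysis and divides within days, and with prolonged IL-2 it takes on the program of a killer or cytokine-producing effector. The comparison asks which genes set long cultured cells of both lineages apart from the fresh state and from the stimulated state at the same time.

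Values are log2 signals, on a scale in which 1 unit is a 2-fold change. They ran with array medians of 6.23 to 6.42. A q-value is the share of false calls expected among the genes called, and a gene passed a comparison at 0.01 or less in the limma fit of all 12 arrays. Some arrays stood apart. Cultured CD4+ replicates 2 and 3 were much closer to each other than any other pair of replicates: over 9716 probe sets with a mean above 8 the SD of their difference was 0.192 log2, against 0.363 to 0.615 in the 14 other pairs. The study describes its cultures as independent, and when the pair was counted as 1 sample 38 genes were called higher and 6 lower, all of them among the 83 and 20. The 2 activated arrays differed by a median of 0.549 log2 over the same probe sets, against at most 0.363 in the other pairs. By the SD of their difference, 0.39 log2, the activated arrays lay toward the low end of those 14 pairs. Without activated replicate 1 the calls rose to 174 and 68, and without activated replicate 2 they fell to 25 and 12. The signal of 18 B cell markers summed to 14.59 and 14.93 log2 in the naive samples, 11.57 and 11.99 in the activated, 10.70 to 11.17 in the NKT-like and 10.90 to 12.08 in the CD4+ cultures. Among them Ms4a1, the CD20 gene, measured 8.17 and 8.77 in naive cells and 5.83 to 7.12 elsewhere, and Cd79a was 5.97 to 6.57 on all arrays. The 3′ to 5′ difference of the Gapdh control probe sets, which grows as RNA is degraded or copied incompletely, was 2.01 and 2.21 log2 in the naive samples, 1.31 and 1.54 in the activated and 0.12 to 1.73 in the cultures. In bulk RNA, fewer cells of a type and less RNA per cell cannot be told apart. Cd8a and Cd4 fitted the labelled lineages, with Cd8a at 9.94 to 11.72 in the CD8+ samples and 6.42 to 6.92 in the CD4+ cultures. Cd4 was at 9.82 to 10.10 in the CD4+ cultures and 6.55 to 7.20 elsewhere. Zbtb7b, also listed as a CD4 lineage marker, did not separate the cultures. It measured 8.34 to 8.52 in the CD4+ and 8.26 to 8.94 in the NKT-like cultures.

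The step that removed most genes was the comparison with activated cells. Both cultures lay above naive cells for 1298 genes, and 545 of these also passed the comparison of activated with naive cells, with activated cells higher. Both cultures lay above activated cells for 110 genes, of which 83 were also above naive cells. In the other direction 750 genes lay below naive cells, 40 below activated cells and 20 below both. The q-values were computed per comparison, so a like difference could pass against naive cells and miss against activated cells. On a second probe set of Anxa4, cultured CD4+ cells were 0.596 ± 0.142 log2 above naive cells (limma q = 0.00543). They were 0.599 ± 0.142 log2 above activated cells (q = 0.0338). The part of this in the fall of the counts was not tested. Of the 83, activation itself had raised 6 above naive cells (4.35% of all genes passed in this direction) and lowered 2 (2.68%), and the median activated minus naive difference over the 83 was -0.09 log2. Of the 20, activation had lowered 6 and raised 0, and 0 were raised at an unadjusted limma p under 0.05 either. The plot of changes from naive cells shows most of the 83 along the vertical axis.

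**Figure D1:**
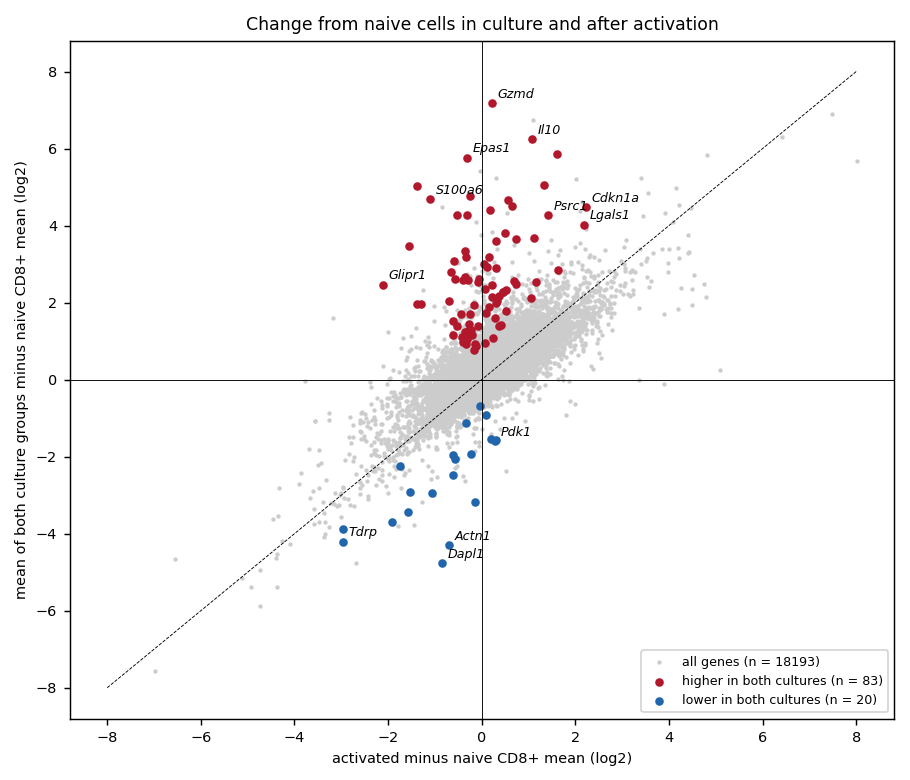
Each grey point is 1 of 18193 genes, placed by the activated minus naive mean (x axis, log2) and by the mean of the NKT-like and cultured CD4+ groups minus the naive mean (y axis, log2). Red points are the 83 genes higher and blue points the 20 genes lower in both cultures in all 4 comparisons, and the dashed line marks equal change. The red points centre on no change by activation, with Cdkn1a and Lgals1 to the right and Glipr1 to the left.

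The largest smallest difference belonged to Epas1, which encodes the hypoxia-inducible factor HIF-2α. Epas1 measured 8.79, 9.72, 12.50, 11.23 and 10.33 in NKT-like replicates 1 to 5, 12.05, 11.69 and 11.68 in cultured CD4+ replicates 1 to 3, 5.26 and 5.55 in the naive samples and 5.002 and 5.19 in the activated samples. Every culture was far above every other sample, and the NKT-like cultures spread over more than 3 log2 units among themselves. Its least difference, 5.11 ± 0.73 log2 or 34.5-fold higher, was that of NKT-like against naive cells, with a largest q of 0.000954 over the 4 comparisons. The call was lost without activated replicate 2, at a largest q of 0.015. A second, dimmer probe set of Epas1 gave a smallest difference of 2.32 log2 (NKT-like against naive, q = 0.0128), and its largest q was 0.0274 (NKT-like against activated), so it missed the threshold. Of 21 hypoxia response genes measured, 1 was higher (Epas1) and 1 lower (Pdk1, described with the genes that fell).

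Calcium-binding S100 proteins, galectins and annexins formed the list with most members called. Of 18 measured, 7 were higher in all 4 comparisons and 0 lower (0 lower also at an unadjusted limma p under 0.05), and the median difference between the mean of the cultures and the mean of the other groups was 1.40 log2, against -0.03 over all genes. S100a6 and S100a4 encode small calcium-binding proteins that attach to cytoskeletal partners. The signal of S100a6 was 8.29 and 8.46 in naive cells and 7.79 and 6.76 in activated cells, against 12.59, 13.29, 13.11, 13.38 and 12.99 in the 5 NKT-like and 12.69, 13.27 and 13.20 in the 3 CD4+ cultures. All 4 comparisons of S100a6 passed, the closest being cultured CD4+ against naive cells at 4.68 ± 0.30 log2 (25.6-fold higher), and the largest q was 2.48e-06. The 8 cultures agreed within 0.8 log2 units, and the call held with each array left out in turn. S100a4 measured 12.45, 13.67, 13.30, 13.55 and 13.51 in NKT-like replicates 1 to 5, 11.11, 12.40 and 12.43 in cultured CD4+ replicates 1 to 3, 7.98 and 7.77 in the naive samples and 8.09 and 7.17 in the activated samples. Cultured CD4+ against naive cells gave the smallest of the 4 differences, 4.10 ± 0.45 log2 (17.2-fold higher), and no q exceeded 0.000313. CD4+ replicate 1 was the lowest culture and still lay 3 units above the highest of the other samples.

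Lgals3 encodes galectin-3, a secreted lectin that binds cell surface sugars. In the NKT-like cultures Lgals3 stood at 13.57, 13.84, 14.05, 13.80 and 13.74, in the CD4+ cultures at 11.85, 12.996 and 13.02, in naive cells at 7.25 and 7.46 and in activated cells at 9.39 and 8.54. For Lgals3 the 4 differences were at least 3.66 ± 0.33 log2 in size (12.6-fold higher, cultured CD4+ against activated), with q of 0.000141 or less. Activated cells lay between naive cells and the cultures, though activated against naive missed the threshold at q = 0.0111. Lgals1, the galectin-1 gene, rose by 2.19 log2 on activation (q = 0.000159) and was higher again in the cultures, at 13.38 to 13.93 in the 8 cultures and 9.33 to 12.06 in the 4 other samples. The remaining members called were S100a13 at 10.48 to 12.03 in the 8 cultures and 8.65 to 9.05 in the 4 other samples, S100a10 at 12.42 to 13.05 in the 8 cultures and 10.41 to 11.41 in the 4 other samples and Anxa4 at 7.26 to 8.03 in the 8 cultures and 5.83 to 6.82 in the 4 other samples. These 4 genes were chosen for mention after their values were seen. Vim, which encodes the intermediate filament vimentin, was higher as well, at 13.20 to 14.01 in the 8 cultures and 10.28 to 11.27 in the 4 other samples, and its smallest difference was 2.45 ± 0.26 log2 (5.48-fold higher, cultured CD4+ against naive, largest q = 0.000141). Of 24 cytoskeletal genes measured, Vim was the 1 higher and Actn1 the 1 lower.

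**Figure D2:**
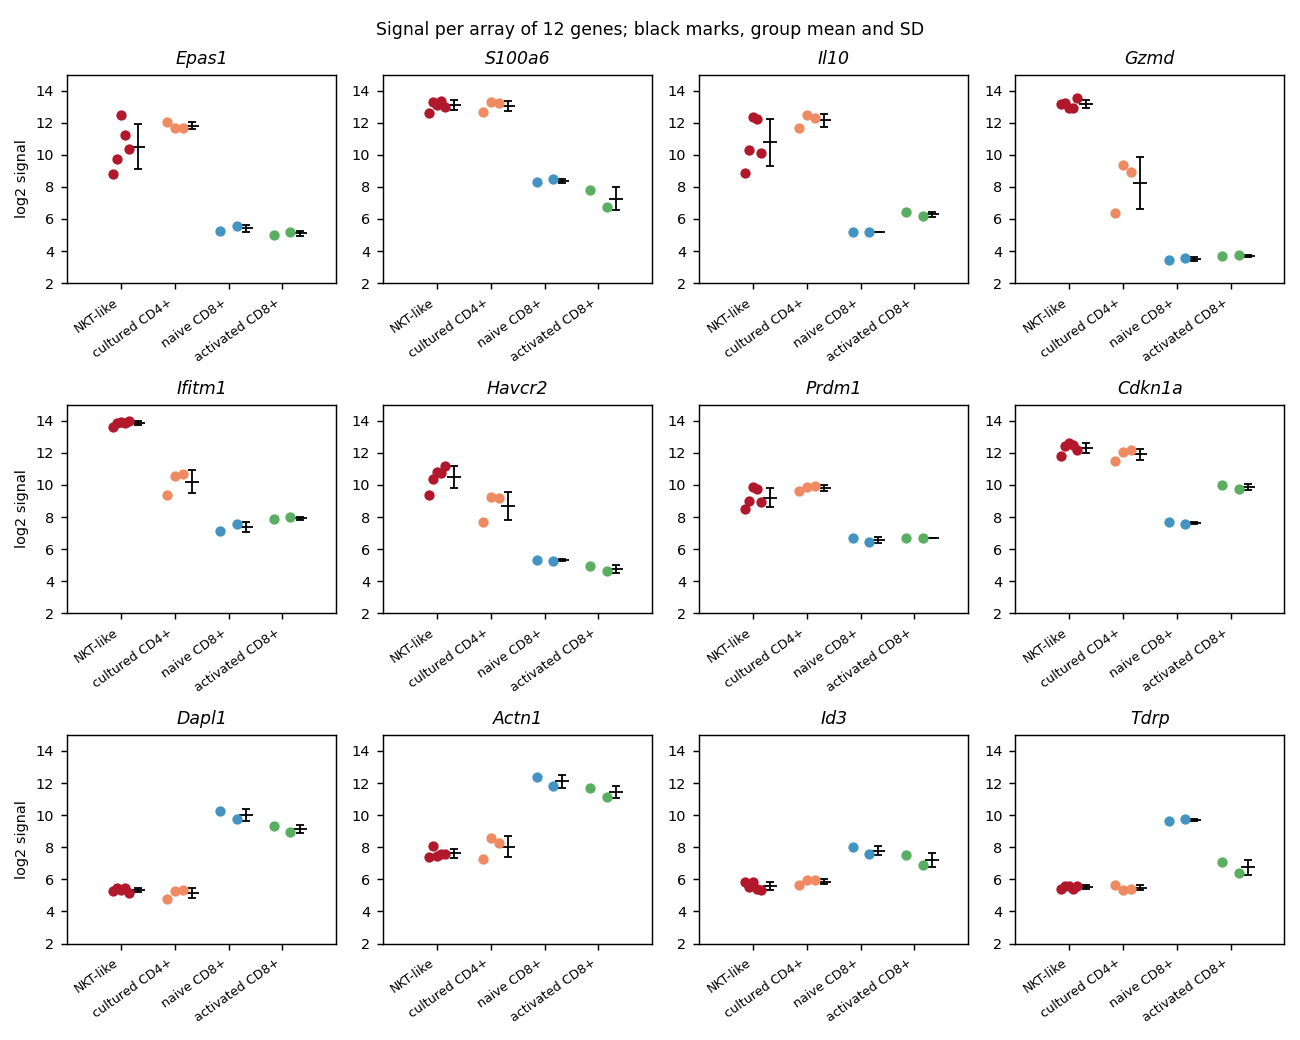
Log2 signal (y axis) of 12 of the genes described, with 1 point per array in each of the 4 groups (x axis) and a black mark for the group mean with its SD. For Epas1, S100a6, Il10, Gzmd, Ifitm1, Havcr2, Prdm1 and Cdkn1a all 8 culture points lie above all 4 other points, and for Dapl1, Actn1, Id3 and Tdrp they lie below.

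Among cytokine genes, Il10 was the 1 called of 20 measured. It encodes the anti-inflammatory cytokine interleukin-10. The signal of Il10 was 5.20 and 5.21 in naive cells and 6.41 and 6.17 in activated cells, against 8.86, 10.30, 12.33, 12.21 and 10.12 in the 5 NKT-like and 11.69, 12.46 and 12.28 in the 3 CD4+ cultures. The cultures did not overlap the other samples, and NKT-like replicate 1 was the lowest culture. The smallest of its 4 differences was 4.48 ± 0.77 log2 (SE of the fit, 22.3-fold higher), for NKT-like against activated cells, and the largest q of the 4 was 0.00387. The 2 culture groups did not differ at the threshold (-1.38 ± 0.67 log2, q = 0.326). The call was lost when activated replicate 1 or 2 or CD4+ replicate 2 or 3 was left out, with a largest q of 0.046, while the smallest difference stayed between 4.09 and 4.95 log2.

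Granzymes are the serine proteases that killer cells deliver into their targets. Gzma measured 14.37, 14.53, 14.55, 14.51 and 14.49 in NKT-like replicates 1 to 5, 10.996, 13.49 and 13.45 in cultured CD4+ replicates 1 to 3, 9.15 and 7.95 in the naive samples and 7.21 and 7.11 in the activated samples. Its least difference, 4.09 ± 0.61 log2 or 17.1-fold higher, was that of cultured CD4+ against naive cells, with a largest q of 0.000528 over the 4 comparisons. The NKT-like values of Gzma lay at or near the highest signal of those arrays, 14.505 to 14.555 log2. Whether this capped the differences of NKT-like cultures from other groups was not tested. The signal of Gzmd was 3.42 and 3.58 in naive cells and 3.67 and 3.75 in activated cells, against 13.14, 13.24, 12.92, 12.93 and 13.53 in the 5 NKT-like and 6.37, 9.38 and 8.90 in the 3 CD4+ cultures. All 4 comparisons of Gzmd passed, the closest being cultured CD4+ against activated cells at 4.50 ± 0.65 log2 (22.7-fold higher), and the largest q was 0.00267. The 4 other samples lay close to the lowest signal of each array, 3.18 to 3.30 log2, so whether Gzmd was above background in them was not tested and the fold is not an exact ratio of RNA. Gzmd was higher in both cultures and at the same time far from equal between them, at 4.94 ± 0.52 log2 above CD4+ cultures in NKT-like cultures (q = 0.000234, 1.21% of all genes passed in this direction). The CD4+ cultures ranged over 3 units, with replicate 1 the lowest. The Gzmd call was lost without CD4+ replicate 2 or 3 or activated replicate 2, and that of Gzma without naive replicate 2 or activated replicate 2, with a largest q of 0.033 for Gzmd and 0.011 for Gzma. Of 20 killing genes measured these 2 passed all 4 comparisons. By the wider call, the order of group means together with a q of 0.01 for the mean of the cultures against the mean of the others, 11 of the 20 were higher and 0 lower, where 7.7% of all genes were higher and 3.58% lower. Gzma lies on chromosome 13 and Gzmd on chromosome 14. Granzyme genes of the cluster that holds Gzmd are similar in sequence, so cross-hybridization between them is uncertain here.

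The interferon-induced transmembrane proteins Ifitm1, Ifitm2 and Ifitm3, which hinder viruses from entering cells, were all higher. Ifitm3 measured 11.46, 11.77, 11.93, 12.27 and 12.23 in NKT-like replicates 1 to 5, 10.25, 11.85 and 11.77 in cultured CD4+ replicates 1 to 3, 7.59 and 7.06 in the naive samples and 7.45 and 6.56 in the activated samples. Cultured CD4+ against naive cells gave the smallest of the 4 differences, 3.96 ± 0.45 log2 (15.6-fold higher), and no q exceeded 0.000384. In the NKT-like cultures Ifitm1 stood at 13.62, 13.88, 13.91, 13.85 and 13.99, in the CD4+ cultures at 9.36, 10.54 and 10.65, in naive cells at 7.14 and 7.58 and in activated cells at 7.85 and 7.99. The NKT-like cultures held a nearly constant level near the top of the scale, and every CD4+ culture lay below every NKT-like culture. For Ifitm1 the 4 differences were at least 2.27 ± 0.31 log2 in size (4.82-fold higher, cultured CD4+ against activated), with q of 0.002 or less. The NKT-like minus CD4+ difference was 3.66 ± 0.25 log2 for Ifitm1 (q = 8.76e-06) and 2.00 ± 0.33 for Ifitm2 (q = 0.00441). For Ifitm3 it was 0.64 ± 0.36 and missed the threshold (q = 0.418). Ifitm2 itself measured 9.39 to 12.71 in the 8 cultures and 6.81 to 7.92 in the 4 other samples, and its smallest difference was 2.87 ± 0.41 log2 (7.32-fold higher, cultured CD4+ against activated, largest q = 0.00246). In the gene table used for names these 3 genes follow each other on chromosome 7 with 0 other coding genes between them. They are close paralogs, so shared hybridization is uncertain. Of 26 genes measured the 3 Ifitm genes were the only ones called in all 4 comparisons, and by the wider call 8 were higher and 4 lower.

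Beside the Ifitm genes the higher ones were Isg20, Mx1, Gbp3, Psmb8 and Bst2, with mean differences of 1.49, 1.45, 1.25, 1.13 and 1.10 log2. The 4 lower ones were Ifit1, Ifit2, Oasl2 and Usp18, with mean differences from -0.78 to -1.98 log2. Targets of type I interferon stood on both sides, Mx1 and Isg20 among the higher and Ifit1 and Usp18 among the lower. These genes were named after their values were seen.

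Of 12 inhibitory receptor genes Havcr2 was the 1 called. It encodes TIM-3, a surface receptor of chronically stimulated T cells. Havcr2 measured 9.36, 10.38, 10.81, 10.76 and 11.15 in NKT-like replicates 1 to 5, 7.66, 9.24 and 9.16 in cultured CD4+ replicates 1 to 3, 5.35 and 5.26 in the naive samples and 4.96 and 4.61 in the activated samples. The smallest of its 4 differences was 3.38 ± 0.53 log2 (SE of the fit, 10.4-fold higher), for cultured CD4+ against naive cells, and the largest q of the 4 was 0.00178. CD4+ replicate 1 was again the lowest culture, and without CD4+ replicate 2 or 3, naive replicate 2 or activated replicate 2 the call was lost, at q of up to 0.029.

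P2ry14, a receptor for UDP-glucose, was the 1 called of 17 receptors for lipid mediators and purines. The signal of P2ry14 was 5.23 and 5.05 in naive cells and 5.14 and 5.49 in activated cells, against 10.84, 11.09, 11.54, 11.77 and 10.60 in the 5 NKT-like and 7.07, 8.27 and 8.44 in the 3 CD4+ cultures. Its least difference, 2.62 ± 0.41 log2 or 6.13-fold higher, was that of cultured CD4+ against activated cells, with a largest q of 0.00417 over the 4 comparisons. NKT-like cultures were 3.24 ± 0.33 log2 above CD4+ cultures (q = 0.000176). Itih5, which encodes a heavy chain of an inter-alpha-trypsin inhibitor, ran the other way, at 8.28, 8.93, 7.26, 8.36 and 8.10 in the NKT-like and 10.05, 9.67 and 9.70 in the CD4+ cultures against 5.24 and 5.46 in naive and 6.43 and 5.76 in activated cells. Its NKT-like minus CD4+ difference was -1.62 ± 0.30 log2 (q = 0.00911, 1.8% of all genes passed in this direction), and its smallest difference was 2.09 ± 0.35 log2 (4.27-fold higher, NKT-like against activated, largest q = 0.00326). Arsb, a lysosomal sulfatase named after its values were seen, was the other gene with a called difference, 0.92 ± 0.17 log2 higher in NKT-like cultures (q = 0.008). For 77 of the 83 genes no difference between the lineages was called, and 68 of the 83 had culture means within 2-fold of each other. Of the 20 lower genes 0 were called between the lineages in limma on the probe set used, 5 had an unadjusted p under 0.05, and 19 were within 2-fold. Further probe sets of Cnn3, a lower gene, are marked as binding several sequences. On these NKT-like minus CD4+ ran from -0.34 (q = 0.561) to -2.90 log2 (q = 0.00147).

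Among transcription factors that direct T cell fate, 3 of 29 measured were higher (Epas1, Prdm1 and Id2) and 1 was lower (Id3). By the wider call 12 were higher and 2 lower. Prdm1 encodes Blimp-1, a repressor that drives terminal effector differentiation and is induced by IL-2. Prdm1 measured 8.49, 9.002, 9.88, 9.72 and 8.91 in NKT-like replicates 1 to 5, 9.62, 9.89 and 9.94 in cultured CD4+ replicates 1 to 3, 6.72 and 6.43 in the naive samples and 6.68 and 6.71 in the activated samples. All 4 comparisons of Prdm1 passed, the closest being NKT-like against activated cells at 2.50 ± 0.32 log2 (5.68-fold higher), and the largest q was 0.000634. Naive and activated cells had the same level within 0.3 log2 units. Id2 and Id3 encode inhibitors of E proteins, with Id2 typical of effector and Id3 of naive and memory cells. The signal of Id2 was 9.27 and 9.28 in naive cells and 9.18 and 8.56 in activated cells, against 11.64, 12.10, 12.17, 12.36 and 12.06 in the 5 NKT-like and 11.89, 11.60 and 11.50 in the 3 CD4+ cultures. Cultured CD4+ against naive cells gave the smallest of the 4 differences, 2.39 ± 0.22 log2 (5.25-fold higher), and no q exceeded 4.57e-05. In the NKT-like cultures Id3 stood at 5.85, 5.50, 5.86, 5.42 and 5.33, in the CD4+ cultures at 5.68, 5.93 and 5.93, in naive cells at 7.99 and 7.60 and in activated cells at 7.53 and 6.90. For Id3 the 4 differences were at least 1.36 ± 0.22 log2 in size (2.57-fold lower, cultured CD4+ against activated), with q of 0.00529 or less. The pair moved in opposite directions in every culture relative to every other sample. The Id2 call held with each array left out. The Id3 call was lost without any 1 of the 3 CD4+ cultures or without activated replicate 1, at q of up to 0.022, and after centring each array on its median.

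Prdm1 and Id2 were also the 2 called of 23 IL-2 and STAT5 target genes. By the wider call 11 of the 23 were higher and 0 lower, with a median difference of 1.17 log2. Over the same genes activated cells exceeded naive cells by a median of 1.31 log2, and 9 passed that comparison, so these 9 had already risen in the activated samples.

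Targets of p53 and inhibitors of cyclin-dependent kinases, which slow or stop the cell cycle, formed the second largest group. Of 20 measured 5 were higher in all 4 comparisons and 0 lower, and by the wider call 13 were higher and 0 lower. The median difference was 1.31 log2 between the sides and 0.01 between activated and naive cells. Cdkn1a encodes p21, the inhibitor of cyclin-dependent kinases that p53 induces. Cdkn1a measured 11.83, 12.42, 12.63, 12.50 and 12.20 in NKT-like replicates 1 to 5, 11.48, 12.05 and 12.17 in cultured CD4+ replicates 1 to 3, 7.67 and 7.59 in the naive samples and 9.98 and 9.75 in the activated samples. The smallest of its 4 differences was 2.03 ± 0.24 log2 (SE of the fit, 4.09-fold higher), for cultured CD4+ against activated cells, and the largest q of the 4 was 0.000848. Activation raised it by 2.24 log2 over naive cells (q = 0.000407), and the cultures were higher again. A dimmer probe set differed by 1.23 log2 and missed the threshold at q = 0.11. Pmaip1 encodes NOXA, a promoter of apoptosis, and was at 7.69 to 8.93 in the 8 cultures and 4.80 to 6.60 in the 4 other samples, and its smallest difference was 2.47 ± 0.33 log2 (5.54-fold higher, NKT-like against activated, largest q = 0.0019). Zmat3 encodes a zinc finger RNA-binding protein, measured 9.16 to 10.22 in the 8 cultures and 6.42 to 7.28 in the 4 other samples, and its smallest difference was 2.44 ± 0.28 log2 (5.42-fold higher, cultured CD4+ against naive, largest q = 0.00061). The other 2, named after their values were seen, were Ccng1 at 11.62 to 12.51 in the 8 cultures and 9.80 to 10.38 in the 4 other samples and Ei24 at 10.71 to 11.28 in the 8 cultures and 9.21 to 9.77 in the 4 other samples.

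Proliferation and growth genes behaved otherwise. Of 22 mitosis genes 16 were higher in activated than in naive cells, with a median of 2.16 log2, but 0 of the 22 was called in all 4 comparisons and 1 by the wider call. The spindle gene Psrc1, described below, is not on that list. It passed all 4 comparisons and was also 1.42 log2 higher in activated than in naive cells (q = 0.00453). Of 25 DNA replication genes 20 rose on activation and 0 passed all 4 comparisons. Of 17 glycolysis genes 11 rose on activation, with a median of 2.43 log2, and 0 passed. Cholesterol and fatty acid synthesis had 15 of 26 raised by activation, 0 called in all 4 and 8 by the wider call. ATF4 targets and amino acid supply had 10 of 26 raised by activation, 0 called in all 4 comparisons, and 1 higher and 1 lower by the wider call. In each of these 5 lists 0 members reached an unadjusted limma p under 0.05 in all 4 comparisons in 1 direction.

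Genes of the secretory and endosomal compartments were called mainly by the wider rule. Of 20 genes of the unfolded protein response, which expands folding capacity in the endoplasmic reticulum, 12 were higher by it and 0 lower, and Edem1, which sorts misfolded proteins for degradation, passed all 4 comparisons. Edem1 was at 11.25 to 11.85 in the 8 cultures and 9.76 to 10.52 in the 4 other samples, and its smallest difference was 1.32 ± 0.24 log2 (2.49-fold higher, cultured CD4+ against activated, largest q = 0.00901). Its call was lost in 11 of 12 fits with an array left out, the exception being activated replicate 1. Of 23 lysosomal genes on the list 11 were higher by the wider call, 0 lower, and 0 passed all 4 comparisons, where 4 were higher at an unadjusted limma p under 0.05 in each. The lysosomal sulfatase gene Arsb, described above, is not on that list. It was higher in all 4 comparisons (largest limma q = 0.000275). Its further probe sets missed the threshold, with a largest q of 0.0576 and 0.604.

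Of the lists not yet described, only that of naive T cell genes had more than 1 member called in all 4 comparisons. The hypoxia response list, with Epas1 and Pdk1 called, had 4 of 21 higher and 1 lower by the wider call. The 16 NK receptors and adaptors had 0 called in limma, 0 at an unadjusted p under 0.05 in all 4 and 2 higher by the wider call, and their median NKT-like minus CD4+ difference was 1.97 log2. T cell receptor signalling (26 genes), the TNF family (19) and oxidative phosphorylation (24) had 0 called and 0 at an unadjusted p under 0.05 in all 4, with 4, 4 and 5 higher and 1, 0 and 1 lower by the wider call. Tnfrsf13b, a receptor of the TNF receptor family that is not on that list and was named after its values were seen, was higher in all 4 comparisons, at 8.20 to 9.27 in the 8 cultures and 6.83 to 7.83 in the 4 other samples, and its smallest difference was 1.09 ± 0.27 log2 (2.13-fold higher, NKT-like against naive, largest q = 0.00596). Chemokine and egress receptors had more lower than higher members by the wider call, 4 against 2 of 15, as did naive T cell genes and the markers of B cells, red cells, myeloid cells and platelets.

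**Figure D3:**
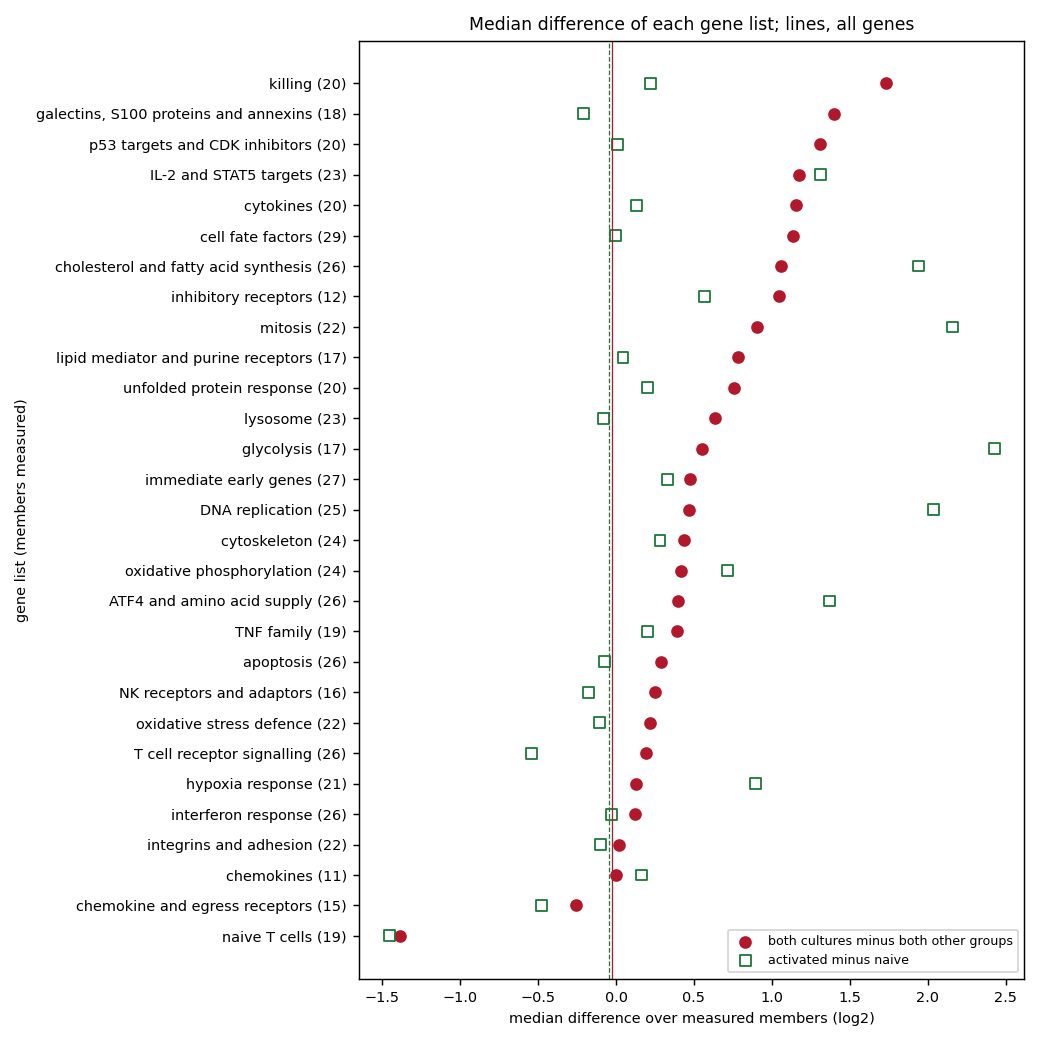
Each row is a gene list with the number of members measured in parentheses. Filled circles give the median difference between the mean of both cultures and the mean of both other groups, open squares the median activated minus naive difference (both log2, x axis), and the vertical lines the same medians over all genes. For galectins, S100 proteins and annexins the circle lies at 1.40 and the square at -0.21, and for mitosis at 0.90 and 2.16.

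Further genes among the 15 largest were Tmem163, Gem, Ctla2a, Ctla2b and Psrc1. Ctla2a and Ctla2b encode small inhibitors of cathepsin-type proteases. Ctla2a measured 11.60, 12.20, 12.14, 12.17 and 12.08 in NKT-like replicates 1 to 5, 11.85, 11.73 and 11.60 in cultured CD4+ replicates 1 to 3, 8.62 and 9.0 in the naive samples and 8.34 and 8.10 in the activated samples. Its least difference, 2.92 ± 0.19 log2 or 7.55-fold higher, was that of cultured CD4+ against naive cells, with a largest q of 2.48e-06 over the 4 comparisons. The spread within each group was below 0.7 log2 units, and the call held with each array left out. Ctla2b measured 9.50 to 11.90 in the 8 cultures and 5.38 to 7.64 in the 4 other samples, and its smallest difference was 2.91 ± 0.38 log2 (7.54-fold higher, cultured CD4+ against naive, largest q = 0.000197). The pair are paralogs with 1 other coding gene between them on chromosome 13, and shared hybridization is uncertain. Tmem163, a zinc transporter of vesicles, was at 9.12 to 10.28 in the 8 cultures and 6.05 to 6.74 in the 4 other samples, and its smallest difference was 3.07 ± 0.26 log2 (8.42-fold higher, cultured CD4+ against activated, largest q = 7.46e-05). Gem, a small GTPase induced in mitogen-stimulated T cells, was at 8.23 to 11.07 in the 8 cultures and 4.50 to 6.50 in the 4 other samples, and its smallest difference was 3.00 ± 0.47 log2 (8.01-fold higher, cultured CD4+ against activated, largest q = 0.00433). Psrc1, a microtubule-binding protein of the spindle, was at 9.58 to 10.60 in the 8 cultures and 5.69 to 7.49 in the 4 other samples, and its smallest difference was 2.84 ± 0.22 log2 (7.15-fold higher, NKT-like against activated, largest q = 7.86e-05), and a second probe set, marked as binding several sequences, passed all 4 comparisons at 1.02 log2 or more (largest q = 0.0037). A further, dim probe set, with group means of 4.86 to 5.16 log2, showed -0.29 log2 in the least favourable comparison. Rai14, an actin-associated protein, was at 7.82 to 10.40 in the 8 cultures and 4.74 to 6.01 in the 4 other samples, and its smallest difference was 2.56 ± 0.46 log2 (5.88-fold higher, NKT-like against activated, largest q = 0.00489). Its call was lost without NKT-like replicate 4 or 5 or activated replicate 2, at q of up to 0.07, and its next probe set gave a smallest difference of 0.73 log2 (NKT-like against naive, q = 0.0328) and a largest q of 0.0841.

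Short letter patterns of transcription factors were searched on both strands in the 250 bases before each annotated start, for which a window was at hand for 63 of the 83 genes, 16 of the 20 and 14452 of all 18193. The AP-1 pattern TGANTCA, bound by the Fos and Jun family that antigen receptor signals induce, was present in 10 of the 63 (15.9%), 1 of the 16 (6.25%) and 6.7% of all. The STAT pattern TTCNNNGAA was in 4 (6.35%), 1 (6.25%) and 7.42%. A pattern that resembles the interferon-stimulated response element, with GAAA, a gap of 2 bases and GAAA again, was in 3 (4.76%), 0 and 3.13%, and the E-box CACGTG in 1 (1.59%), 1 (6.25%) and 8.73%. None of the 4 patterns contains another. A match is a run of letters and not a measured binding site. The windows below belong to 4 of the 10 genes with the AP-1 letters and show where those letters stand. They are the RefSeq sequence of GRCm38.p6, 5′ to 3′ on the strand of the gene, with the match in capitals. Each ends at the base before an annotated start, which for Ctla2a and Ctla2b lies inside the annotated span of the gene.
Havcr2, chr11:46454681-46454930, plus strand: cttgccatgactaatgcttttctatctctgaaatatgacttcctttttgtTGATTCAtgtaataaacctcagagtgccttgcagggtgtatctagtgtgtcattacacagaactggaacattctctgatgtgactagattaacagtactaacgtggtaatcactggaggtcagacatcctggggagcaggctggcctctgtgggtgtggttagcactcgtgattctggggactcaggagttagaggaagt
Ctla2a, chr13:60936567-60936816, minus strand: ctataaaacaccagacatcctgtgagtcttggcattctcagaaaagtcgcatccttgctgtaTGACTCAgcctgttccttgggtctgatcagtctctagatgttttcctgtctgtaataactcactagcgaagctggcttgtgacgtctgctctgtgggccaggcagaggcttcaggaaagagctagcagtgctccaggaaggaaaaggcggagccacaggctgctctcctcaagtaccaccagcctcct
Ctla2b, chr13:60897448-60897697, minus strand: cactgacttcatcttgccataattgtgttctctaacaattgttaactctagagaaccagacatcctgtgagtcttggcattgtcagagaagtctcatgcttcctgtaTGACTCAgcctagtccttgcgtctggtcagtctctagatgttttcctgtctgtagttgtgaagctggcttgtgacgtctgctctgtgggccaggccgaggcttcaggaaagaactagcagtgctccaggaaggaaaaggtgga
Ifitm3, chr7:141010745-141010994, minus strand: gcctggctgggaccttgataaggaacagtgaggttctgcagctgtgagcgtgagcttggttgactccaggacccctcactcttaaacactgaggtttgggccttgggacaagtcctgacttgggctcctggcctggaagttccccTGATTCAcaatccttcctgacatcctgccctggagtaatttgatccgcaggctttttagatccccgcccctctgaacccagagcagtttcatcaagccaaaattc

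The matches began 200 bases before the start used in Havcr2, 188 in Ctla2a, 143 in Ctla2b and 105 in Ifitm3. The windows of Ctla2a and Ctla2b share long stretches, the longest of 36 bases, so this pair is not 2 separate occurrences. The other 6 genes with the letters were Capn2, F2r, Glrx, P2ry14, Prdm1 and Upp1.

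The genes lower in both cultures with the largest differences, Dapl1 and Actn1, belonged to the list of naive T cell genes. Of 19 naive T cell genes measured 3 were lower in all 4 comparisons, 10 by the wider call, and 0 higher by either, with a median difference of -1.39 log2. At an unadjusted p under 0.05 in limma 0 members were higher as well. Activated minus naive had a median of -1.45 log2 over the list, and 8 members had already passed as lower there. Dapl1 encodes a protein related to death-associated protein and is a marker of naive CD8+ cells. Dapl1 measured 5.25, 5.46, 5.35, 5.49 and 5.16 in NKT-like replicates 1 to 5, 4.77, 5.29 and 5.37 in cultured CD4+ replicates 1 to 3, 10.27 and 9.75 in the naive samples and 9.34 and 8.98 in the activated samples. All 4 comparisons of Dapl1 passed, the closest being NKT-like against activated cells at -3.82 ± 0.19 log2 (14.1-fold lower), and the largest q was 2.48e-06. The cultures lay at the lower end of the scale, where background makes up part of an array signal and a fold is not an exact ratio of RNA. The same holds for the other genes with a group below the array medians. Actn1 encodes the actin crosslinker α-actinin-1. The signal of Actn1 was 12.41 and 11.84 in naive cells and 11.71 and 11.16 in activated cells, against 7.40, 8.05, 7.46, 7.60 and 7.56 in the 5 NKT-like and 7.28, 8.55 and 8.29 in the 3 CD4+ cultures. Cultured CD4+ against activated cells gave the smallest of the 4 differences, -3.39 ± 0.34 log2 (10.5-fold lower), and no q exceeded 0.000293. Both calls held with each array left out. Further probe sets of Actn1 had the same order of means but missed the threshold. Their largest q was 0.0341 and 0.0538, the latter on a probe set marked as binding several sequences. In the NKT-like cultures Tdrp stood at 5.43, 5.59, 5.59, 5.41 and 5.62, in the CD4+ cultures at 5.64, 5.33 and 5.43, in naive cells at 9.65 and 9.75 and in activated cells at 7.09 and 6.39. Tdrp fell on activation by 2.96 log2 (q = 7.39e-06) and was lower again in the cultures. For Tdrp the 4 differences were at least 1.21 ± 0.16 log2 in size (2.32-fold lower, NKT-like against activated), with q of 0.00234 or less.

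Itga6, the integrin α6 chain of laminin receptors, was the 1 lower of 22 integrin and adhesion genes, at 6.79 to 8.08 in the 8 cultures and 8.72 to 10.39 in the 4 other samples, and its smallest difference was -1.76 ± 0.32 log2 (3.39-fold lower, NKT-like against activated, largest q = 0.00733). Its neighbour on chromosome 2, with 0 coding genes between them, is Pdk1, a kinase that inhibits pyruvate dehydrogenase and so holds back the entry of pyruvate into mitochondria. Pdk1 measured 9.36, 8.86, 8.72, 8.85 and 8.19 in NKT-like replicates 1 to 5, 8.72, 8.54 and 8.84 in cultured CD4+ replicates 1 to 3, 10.46 and 10.23 in the naive samples and 10.95 and 10.32 in the activated samples. The smallest of its 4 differences was -1.55 ± 0.26 log2 (SE of the fit, 2.93-fold lower), for NKT-like against naive cells, and the largest q of the 4 was 0.003. Both had a second probe set that passed, at -1.63 log2 for Itga6 and -2.49 for Pdk1. Further probe sets of Pdk1 missed the threshold, with smallest differences of -1.49 and -0.52 log2 (largest q of 0.0125 and 0.0859). The Itga6 call was lost in 10 of 12 fits with an array left out.

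Several genes lower in the cultures are known also from B cells. Pou2af1 encodes OCA-B, a coactivator of immunoglobulin transcription. Pou2af1 measured 4.21, 4.72, 4.36, 4.35 and 4.73 in NKT-like replicates 1 to 5, 5.23, 4.76 and 4.92 in cultured CD4+ replicates 1 to 3, 8.23 and 8.07 in the naive samples and 6.80 and 6.35 in the activated samples. Its least difference, -1.61 ± 0.20 log2 or 3.04-fold lower, was that of cultured CD4+ against activated cells, with a largest q of 0.00113 over the 4 comparisons. St6gal1, which adds sialic acid to surface glycoproteins, was at 6.57 to 7.69 in the 8 cultures and 8.63 to 10.87 in the 4 other samples, and its smallest difference was -1.64 ± 0.29 log2 (3.11-fold lower, cultured CD4+ against activated, largest q = 0.00842). Its next probe set gave a smallest difference of -0.16 log2 (NKT-like against activated, q = 0.296) and a largest q of 0.323. The St6gal1 call was lost in 10 of 12 fits with an array left out, and after centring each array on its median. Beside these genes, 12 of the 18 B cell markers were lower by the wider call and 0 was called in all 4 comparisons in limma, where 4 were lower at an unadjusted p under 0.05 in each. The summed B cell signal of the activated samples, 11.57 and 11.99, lay above that of every NKT-like culture. It was also above that of CD4+ replicates 2 and 3, at 10.90 and 11.01, and below that of CD4+ replicate 1, at 12.08. The part of B cell RNA in these differences was not tested. The summed signal of red cell markers was 13.27 and 13.79 in naive samples, 12.59 and 12.74 in activated samples and 11.22 to 12.44 in the cultures, and 3 of 10 were lower by the wider call.

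Rgcc, a regulator of the cell cycle, was at 6.85 to 8.98 in the 8 cultures and 10.91 to 11.56 in the 4 other samples, and its smallest difference was -2.42 ± 0.35 log2 (5.34-fold lower, cultured CD4+ against activated, largest q = 0.00261). Slc14a1, a urea transporter, was at 4.25 to 5.11 in the 8 cultures and 5.82 to 7.19 in the 4 other samples, and its smallest difference was -1.66 ± 0.28 log2 (3.17-fold lower, cultured CD4+ against activated, largest q = 0.00635), with the cultures again at the lower end of the scale. Cnn3, an actin-binding calponin, was at 6.02 to 7.11 in the 8 cultures and 7.93 to 8.75 in the 4 other samples and Cpm, a carboxypeptidase of the cell surface, at 4.60 to 4.91 in the 8 cultures and 5.87 to 7.04 in the 4 other samples. Bend4 measured 6.69 to 7.76 in the 8 cultures and 8.57 to 9.22 in the 4 other samples, Plcxd2 7.02 to 8.26 in the 8 cultures and 9.18 to 9.71 in the 4 other samples and Ms4a4c 6.42 to 7.74 in the 8 cultures and 8.18 to 10.17 in the 4 other samples, the last from a probe set marked as binding several sequences. The smallest differences of these 5 were -1.22, -1.32, -1.20, -1.52 and -1.09 log2 in that order, with the largest q of each between 0.000594 and 0.00837. With an array left out the call was lost in 8 of 12 fits for Slc14a1 and for Ms4a4c and in 10 for Plcxd2. Centring each array on its median also lost the calls of Slc14a1, Ms4a4c and Plcxd2. A second probe set of Rgcc, Slc14a1, Cpm, Bend4 and Plcxd2 had the same order of means but missed the threshold. Its largest q was 0.0177, 0.163, 0.0802, 0.0246 and 0.0119 in that order.

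**Figure D4:**
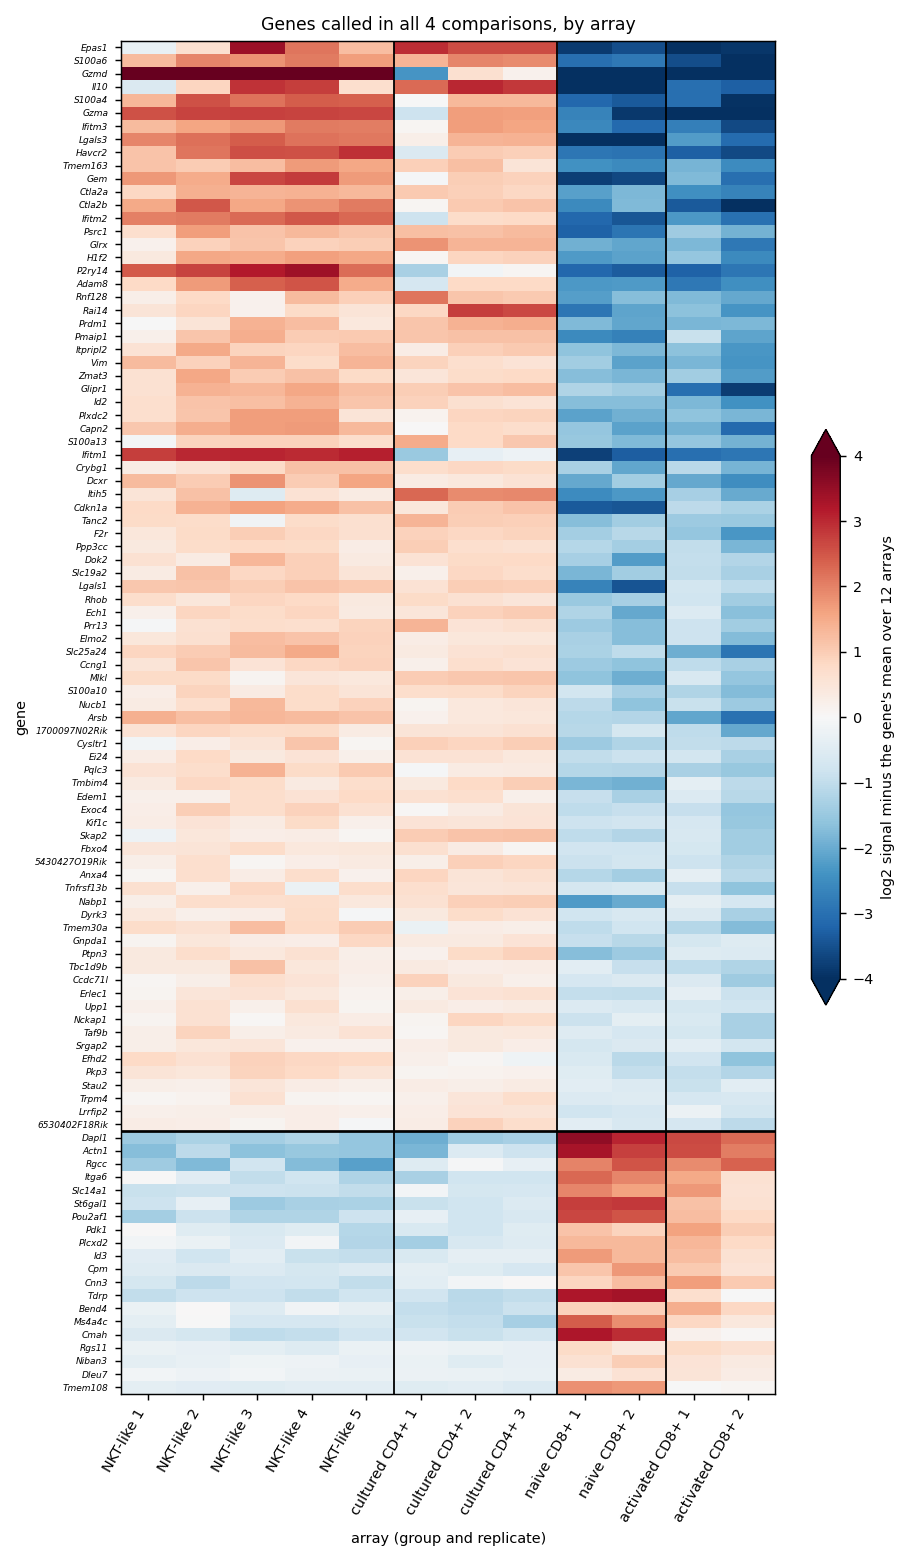
Signal of the 83 genes higher (above the thick line) and the 20 lower in both cultures, with 1 column per array grouped by NKT-like, cultured CD4+, naive and activated samples. Colour gives the log2 signal minus the mean of the gene over the 12 arrays, cut at 4 on either side. Gzmd, P2ry14 and Ifitm1 are a deeper red (higher) in the NKT-like than in the CD4+ columns, and for most of the higher genes activated replicate 2 is a deeper blue (lower) than replicate 1.

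The size of the differences varied widely. Of the 83 genes 69 were at least 2-fold higher in their smallest comparison, 37 at least 4-fold and 11 at least 8-fold. Of the 20 genes 15 were at least 2-fold lower and 3 at least 4-fold. The values of the 8 cultures and of the 4 other samples did not overlap for any of the 103 genes, a property shared by 3.42% of all genes in the higher and 1.47% in the lower direction and close to what the calls themselves require. Ech1 and Ptpn3 passed just inside the threshold, with a largest q of 0.00932 and 0.00942, and Ms4a4c and St6gal1 with 0.00837 and 0.00842. Just outside lay Ngly1 among higher genes, and Ccr6 and Atp1b1 among lower genes with 0.0117 and 0.0121. Of the 83 genes 44 had further probe sets. Of these 77 probe sets 55 had the same order of group means, 8 the opposite order, and 23 were called. For 13 of the 20 lower genes all 25 further probe sets had the same order and 5 were called.

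**Figure D5:**
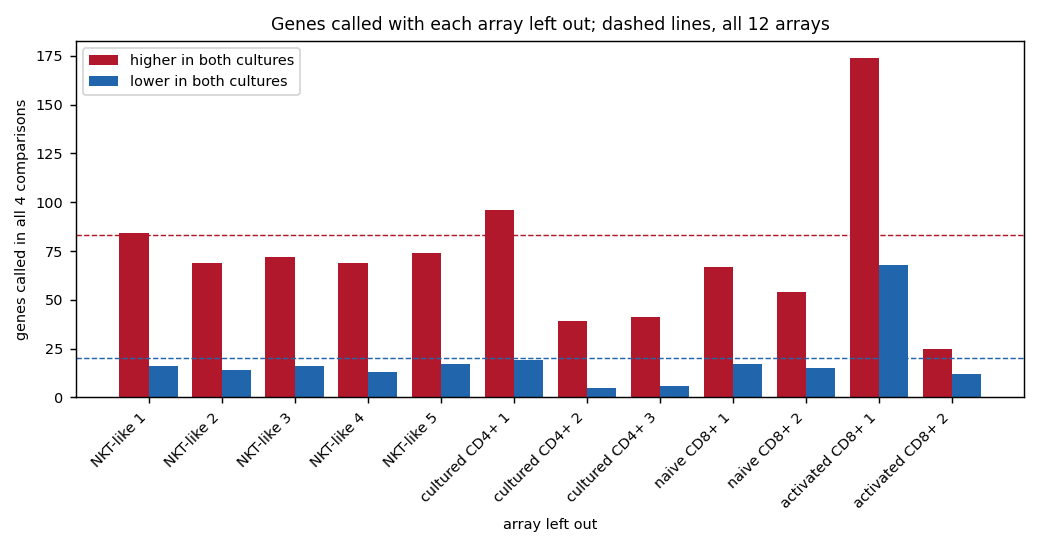
Number of genes called in all 4 comparisons (y axis) when the array named on the x axis is left out, with the cultures higher in red and lower in blue, and dashed lines at 83 and 20 for all 12 arrays. The counts run from 25 higher without activated replicate 2 to 174 without activated replicate 1.

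The calls rested on few samples in each comparison group. With 1 array left out at a time, 21 of the 83 higher and 4 of the 20 lower genes were called in all 12 fits. When a culture was left out and genes were called without it, it lay on the side of the other cultures for 95.8% to 100% of them, against 51.6% to 91.5% of all genes with that order of means. For cultured CD4+ replicates 2 and 3 the share was 100%. Each was left out while the other of this close pair stayed in the calls, so their values are no separate check. For activated replicate 1 the same held for 94.8% of the genes called higher without it (49.1% of all ordered genes) and for 51.5% of those called lower, 35 of 68 (30.1% of all ordered genes). Among the genes mentioned, those that passed with each array left out were S100a6, S100a4, Ifitm3, Lgals3, Tmem163, Ctla2a, Ctla2b, Psrc1, Id2, Zmat3, Vim, S100a13, Arsb, Glipr1, F2r, Glrx, Dapl1, Actn1 and Pou2af1.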

How the data were processed

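RNA of 5 NKT-like, 3 cultured CD4+, 2 naive CD8+ and 2 activated CD8+ samples was measured, 1 array each. The authors deposited log2 values after RMA, which corrects background, normalizes by quantiles and summarizes probe sets; no version of it was found. Precision is limited by the number of arrays. Of 45101 probe sets, 64 controls were left out, and 34945 of the rest have 1 gene symbol in the platform annotation (932 several, 9160 none). Each of 18193 genes was represented by its unambiguous probe set with the highest mean. Over 45037 probe sets the group means of all 12 arrays were estimated with limma 3.58.1 (R 4.3.3), with 8 residual and 3.03 prior degrees of freedom, and Storey q-values were computed per comparison. The code was tested on simulated data. A gene was called when both culture groups differed in 1 direction from both other groups at q of 0.01 or less in each of 4 comparisons.

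Genes named are the 15 with the largest smallest difference in each direction, up to 3 called members of each of 37 lists (693 of 744 entries measured), those against their list, the 5 with the largest lineage difference in each direction and those beside the threshold. Some genes are not reported here. Members, lists and tests were chosen with earlier results of these data known, so no count here is independent support. Replicate numbers came from the labels. Over 13 same-numbered pairs the deviations from group means correlated between -0.50 and 0.28 (other pairs -0.38 to 0.50), so the numbers were not taken as pairs. The study describes the NKT-like and CD4+ cultures as independent. For the naive and activated samples no source used here does, so their spread may be technical. Alternatives changed the adjustment, threshold, variance model, filter, scaling, probe sets and arrays.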

Additional observations from a re-analysis of the deposited data

Results flagged for a closer look

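Of 43 genes named by rule, 2 had an NKT-like array far from the other 4 of that group by Dixon's test, which chance gives in about 1 of 20 groups. Ctla2a was lowest in NKT-like replicate 1, at 11.60 log2 against 12.08 to 12.20 in the others, and Cpm was lowest in NKT-like replicate 4, at 4.60 against 4.75 to 4.78.

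The culture difference was unequal between the lineages for 5 of these genes, by the limma comparison of NKT-like with cultured CD4+ samples at q of 0.01 or less. NKT-like minus CD4+ was 4.94 log2 for Gzmd, 3.66 for Ifitm1, 3.24 for P2ry14 and 2.00 for Ifitm2, and -1.62 for Itih5. In all 5 the NKT-like and the CD4+ arrays did not overlap. Cultured CD4+ replicate 1 was the lowest CD4+ array for Gzmd, Ifitm1, P2ry14 and Ifitm2 and the highest for Itih5.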

How the results depend on the processing

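Counts are given as higher in all 4 comparisons, lower in all 4, higher by the wider call and lower by the wider call, which were 83, 20, 1401 and 651. With a q of 0.05 they rose to 242, 47, 2478 and 2312. Benjamini-Hochberg adjustment left 333 for the last, and a change of at least 2-fold in each comparison left 648 and 110 by the wider call. In all 4 comparisons, each pair of groups fitted alone gave 22 and 3, array weights 25 and 3, and the largest of the 4 p-values under Benjamini-Hochberg adjustment 24 and 3. Median centring of each array gave 12 lower genes and 388 by the wider call. With the replicate number as a replicate block the counts were 14, 1, 251 and 90. The numbers do not pair the samples and the block takes degrees of freedom, so a call lost under it is not a weaker effect. After the data were seen, counting all probe sets in place of genes gave 140 and 52, and averaging cultured CD4+ replicates 2 and 3 gave 38, 6, 930 and 322. The trended robust prior, the filter on low values, quantile normalization and the mean of all unambiguous probe sets kept the 4 counts within 1.5 times. With each array left out in turn the counts ranged from 25 to 174, 5 to 68, 535 to 2469 and 245 to 2446. The highest of each came without activated replicate 1, and without cultured CD4+ replicates 2 and 3 in turn the counts in all 4 comparisons were 39 and 5, and 41 and 6. Where this left 1 naive or 1 activated array, that array was taken to vary like the other groups. The cause of these shifts was not tested.

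Of the 43 genes named by rule, 42 kept their call under quantile normalization, 34 under median centring, 22 with the averaged CD4+ pair, 8 under the replicate block and 14 with every array left out, and 0 changed direction with an array left out. Of 17 with another unambiguous probe set 5 were called on it, and Psrc1 reversed, at -0.29 log2 on a dim one. Precision was limited by groups of 2 naive and 2 activated arrays.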
